A study of Mus musculus with 8 samples.

Results

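RNA that survived a block of transcription was compared between P19 cells treated with an siRNA against Upf3a and cells treated with a control siRNA, at 105 and 225 min after actinomycin D. The comparison covers the 11104 genes, of 23284 in the deposited table, whose FPKM (sequenced fragments per kilobase of a gene's transcript, relative to sequencing depth) averaged 1 or more over these 4 conditions. It uses 4 of the 8 samples of the series; the other 4, taken at 0 and 15 min, serve below as the state before and just after the block. At that minimum, Thbs4 was just inside with a mean of 1.00 FPKM and Rap2a just outside with 0.999. P19 is a mouse embryonal carcinoma line. All cells were transfected 24 h before actinomycin D, a drug that intercalates in DNA and stops RNA polymerases, was added, and both arms received it. Control siRNA cells at 105 and 225 min and Upf3a siRNA cells at 105 and 225 min form the 4 groups, each listed in the labels as 2 cultures. The table holds 1 FPKM per gene and condition with a lower and an upper limit, so there are no separate replicates and no mean with an SD over cultures.

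Upf3a and its paralog Upf3b act in nonsense-mediated decay (NMD), a surveillance pathway that removes mRNAs when translation ends at a stop codon that lies too early. A stop codon is recognised as early mainly by an exon junction complex, the protein assembly left by splicing, that lies downstream of it, and the UPF3 proteins connect that complex to UPF2 and UPF1. UPF3B promotes decay in most settings, while UPF3A has been described as a weak activator in some and as an antagonist of NMD in others. Once transcription is stopped, an mRNA that is degraded fast falls relative to the rest. The late arm ratios are set beside the early ones below as a description, and the cause of an arm difference was not tested.

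The late conditions had FPKM totals between 662435 and 923333, and 10832 to 11201 genes reached 1 FPKM in each. Read depth is unknown, since FPKM keeps no counts. The deposited upper limit exceeded the FPKM by 32.3% to 32.6% in the median gene of a late condition, and the level of these limits is not stated. Pou5f1, the core factor of pluripotent cells, was between 1962 and 3153 FPKM in the late conditions and Sox2 between 11.6 and 21.9, so both defining genes of embryonal carcinoma cells were detected. Of the markers of other cell types, 14 of 20 fibroblast and smooth muscle genes averaged 1 FPKM or more, with a summed level between 354 and 414 FPKM, and 11 of 21 neural genes, with one between 183 and 236 FPKM. In contrast, 2 of 12 endothelial and blood genes averaged 1 FPKM or more and their summed level stayed between 6.21 and 7.26 FPKM; Hbb-b1 was listed at 0 throughout.

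The targeted mRNA stayed low after the block. Upf3a (chromosome 8, 13785615 to 13799193, plus strand, GRCm38) had 14.0 FPKM (limits 9.53 to 18.5) in the control arm at 105 min and 4.76 (2.98 to 6.53) in the knockdown arm. At 225 min it had 15.0 FPKM (10.3 to 19.7) and 4.16 (2.61 to 5.70). The arms did not overlap at either time, and the knockdown arm held 34.0% and 27.7% of the control FPKM. Upf3b (chromosome X, 37091678 to 37110322, minus strand) had 12.7 FPKM (8.84 to 16.5) in the control arm and 10.8 (7.52 to 14.0) in the knockdown arm at 105 min, and 18.3 (13.1 to 23.5) and 14.0 (9.92 to 18.1) at 225 min. Its limits overlapped at both times.

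Surviving RNA was much alike in the arms, and a small set of genes stood apart at both late times. A gene was called higher or lower where the deposited limits of both arms were apart, at 105 and again at 225 min and in the same direction. By this rule 71 genes (0.639% of those tested) were higher in the knockdown arm and 30 (0.27%) were lower. No p-value belongs to this call, since each condition has 1 value. The size is given as the log2 ratio of knockdown to control on the (FPKM + 1) scale, which understates the change of genes with low FPKM; its median over all genes was 0.01 at both times. At 105 min, 5% of the genes lay below -0.39 and 5% above 0.52, and at 225 min the same percentiles were -0.45 and 0.57. At 105 min alone 105 genes (0.946%) were higher and 41 (0.369%) lower, and at 225 min alone 160 (1.44%) and 56 (0.504%). By a fold of 1.5 or more at both times, 284 genes (2.56%) were higher and 92 (0.829%) lower. limma, with time and arm as terms and 1 residual degree of freedom, called 1700 genes (15.3%) higher and 1243 (11.2%) lower at a Benjamini-Hochberg adjusted p of 0.05, with a median size of 0.40; its p-values rest on the disagreement of 2 times. Of the higher calls by limits, 67.6% of those at 105 min were also made at 225 min, and 44.4% of those at 225 min were also made at 105 min.

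**Figure D1:**
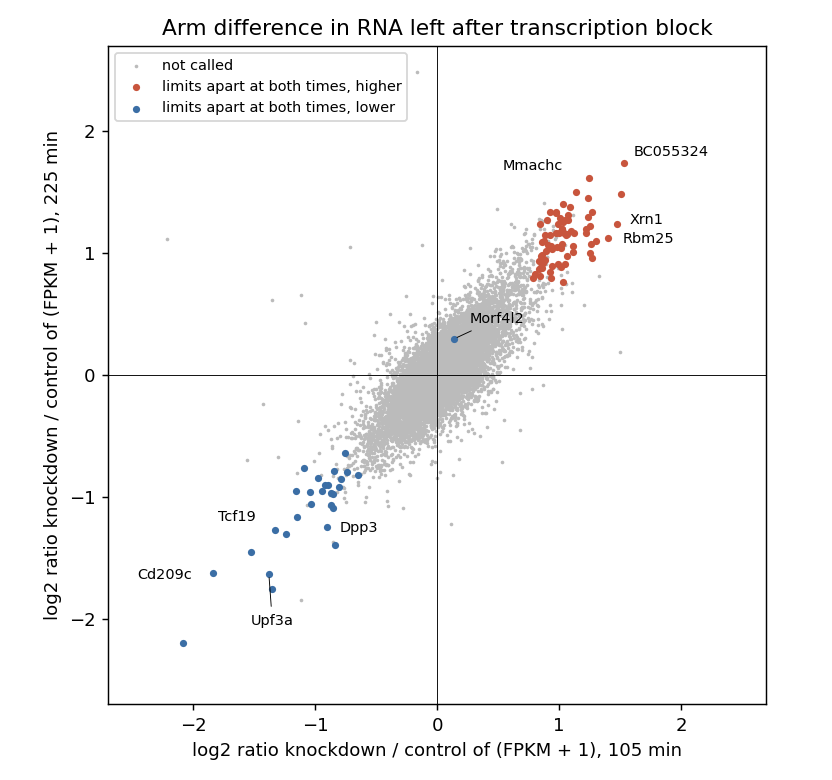
Log2 ratio of knockdown to control, on the (FPKM + 1) scale, at 105 min (x axis) and 225 min (y axis), one point per gene for the 11078 genes inside the plotted range; 26 genes lie outside it. Red marks genes whose limits did not overlap at both times with the knockdown arm higher and blue those with it lower; Morf4l2 is blue with a positive ratio because its deposited limits lie below its FPKM.

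The 71 higher genes had a median late log2 ratio of 1.08, from 0.79 to 1.63, and 32 of them were at least 2-fold higher at both times. Their mean FPKM ran from 1.17 to 206. Of these genes 7 were members only through the knockdown arm, with a control mean below 1 FPKM, and the same holds for 7 of the 30 lower genes through the control arm. In 5 of the higher and 4 of the lower genes the locus is shared with another gene of the table, so reads may be split between them. An annotated exon of a gene on the opposite strand overlapped 13 of the higher and 3 of the lower genes, and the sources used here do not say whether reads were counted by strand.

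The higher genes with the largest ratios among those averaging 5 FPKM or more have varied roles. Mmachc, which processes vitamin B12 inside the cell (chromosome 4, 116702279 to 116708406, minus strand), had 8.28 FPKM (5.23 to 11.3) in the control arm and 21.0 (14.5 to 27.6) in the knockdown arm at 105 min, and 7.02 (4.4 to 9.64) and 23.6 (16.4 to 30.9) at 225 min. BC055324 had 5.92 (3.24 to 8.61) and 19 (12.9 to 25.2) FPKM at 105 min, and 3.33 (1.75 to 4.92) and 13.4 (9.03 to 17.8) at 225 min. Its ratio of 1.63 was the highest of the called genes, but its locus is shared and its exons overlap Scyl3 on the other strand. Rbm25, a splicing factor that influences the choice of splice sites, had 10.5 FPKM (7.50 to 13.4) against 29.3 (21.4 to 37.2) at 105 min and 6.6 (4.59 to 8.62) against 15.6 (11.3 to 20.0) at 225 min. At 225 min Rbm25 stood at 42.7% of its 0 min FPKM in the control arm and at 44.6% in the knockdown arm, with the arms apart at both late times; its exons overlap Gm29361 on the other strand.

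Lmnb2 encodes lamin B2 of the nuclear envelope, and its arms were apart by a similar amount at both times. It had 12.5 FPKM (8.38 to 16.6) in the control arm and 30.8 (22.0 to 39.6) in the knockdown arm at 105 min, and 13.0 (8.98 to 17.0) and 33.5 (24.1 to 42.9) at 225 min. Men1, which encodes the chromatin protein menin, had 20.1 (13.4 to 26.9) and 42.2 (30.2 to 54.2) FPKM at 105 min and 15.0 (10.1 to 19.9) and 41.4 (29.9 to 52.9) at 225 min. Cdkn2aipnl, a small relative of a CDKN2A-interacting protein, had a mean late ratio of 1.32. Crcp, a subunit of RNA polymerase III, had one of 1.20, Pigq, an enzyme of the first step of GPI anchor synthesis, one of 1.15, and Eral1, which assists assembly of the small mitochondrial ribosomal subunit, one of 1.15. Neurl4 had a ratio of 1.20 and Ankrd46 one of 1.16.

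Several called genes with related roles are named here after their values were seen, with no test of enrichment. Polymerase subunits were Polr1b of RNA polymerase I, with a ratio of 1.10, and Polr3f of RNA polymerase III, with 0.89. Mitochondrial genes were Mrps26 with 0.99 and Mrps31 with 1.14, both proteins of the small mitochondrial ribosomal subunit, the complex I assembly factor Ndufaf1 with 1.21, the ATP synthase assembly factor Atpaf1 with 1.10 and Taco1, a translational activator of a mitochondrially encoded oxidase subunit, with 1.11. Nek4, a kinase, had 1.22 FPKM (0.692 to 1.75) against 5.33 (3.50 to 7.16) at 105 min and 1.27 (0.717 to 1.82) against 5.37 (3.57 to 7.16) at 225 min. Kat2a, a histone acetyltransferase, had 38.6 (27.3 to 49.8) and 70.8 (51.8 to 89.8) FPKM at 105 min, a ratio of 0.87 over both times.

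Lower genes were fewer, with a median of their mean FPKM of 4.27 against 8.17 for the higher genes and 10.7 for all coding genes. This mean includes the knockdown arm, so the call itself lowers it for lower genes and raises it for higher genes. Cd209c, a C-type lectin, had 84.8 FPKM (58.5 to 111) in the control arm and 23.0 (15.7 to 30.3) in the knockdown arm at 105 min, and 74.9 (53.3 to 96.4) and 23.6 (16.2 to 31.0) at 225 min. The log2 ratio averaged -1.73, larger in size than that of Upf3a, which was -1.51. Tcf19, a growth-regulated chromatin factor, had 15.7 (10.3 to 21.1) and 5.65 (3.46 to 7.84) FPKM at 105 min and 10.4 (6.63 to 14.1) and 3.70 (2.19 to 5.22) at 225 min. Dpp3, a peptidase that cleaves dipeptides from short peptides, had 69.2 (50.5 to 87.9) and 36.6 (26.3 to 46.8) FPKM at 105 min and 84.7 (62.2 to 107) and 35.2 (25.3 to 45.1) at 225 min. Dpp3 differed more at 225 min, where the knockdown arm held 41.5% of control, than at 105 min, where it held 52.8%.

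Hsd17b7, an enzyme of cholesterol synthesis, had 8.94 FPKM (6.15 to 11.7) against 4.43 (2.92 to 5.94) at 105 min and 9.37 (6.48 to 12.3) against 3.95 (2.59 to 5.31) at 225 min. Il33, a nuclear cytokine released from damaged cells, had 13.2 (8.99 to 17.4) against 6.38 (4.16 to 8.59) at 105 min and 14.5 (9.96 to 19) against 7.0 (4.62 to 9.38) at 225 min. The ratio of Il33 was -0.95 at each time, so the arms kept their distance. Lrrn1, a leucine-rich repeat membrane protein, had a mean ratio of -0.92 and Syt11, a synaptotagmin of vesicle traffic, one of -0.86. Scaled to ribosomal protein genes, the limits of Dpp3, Hsd17b7, Il33, Lrrn1 and Syt11 overlapped at 1 or both late times. With that scaling 95 genes were higher and 17 lower. Morf4l2 stands among the 30 lower genes by its limits alone: its FPKM of 200 in the knockdown arm at 105 min lies above its own upper limit of 52.5, and its ratio was positive, 0.14 at 105 min and 0.30 at 225 min. Without it 29 genes were lower. Mir215, a microRNA gene listed at 0 FPKM in the knockdown arm at both late times, is also among the 30.

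**Figure D2:**
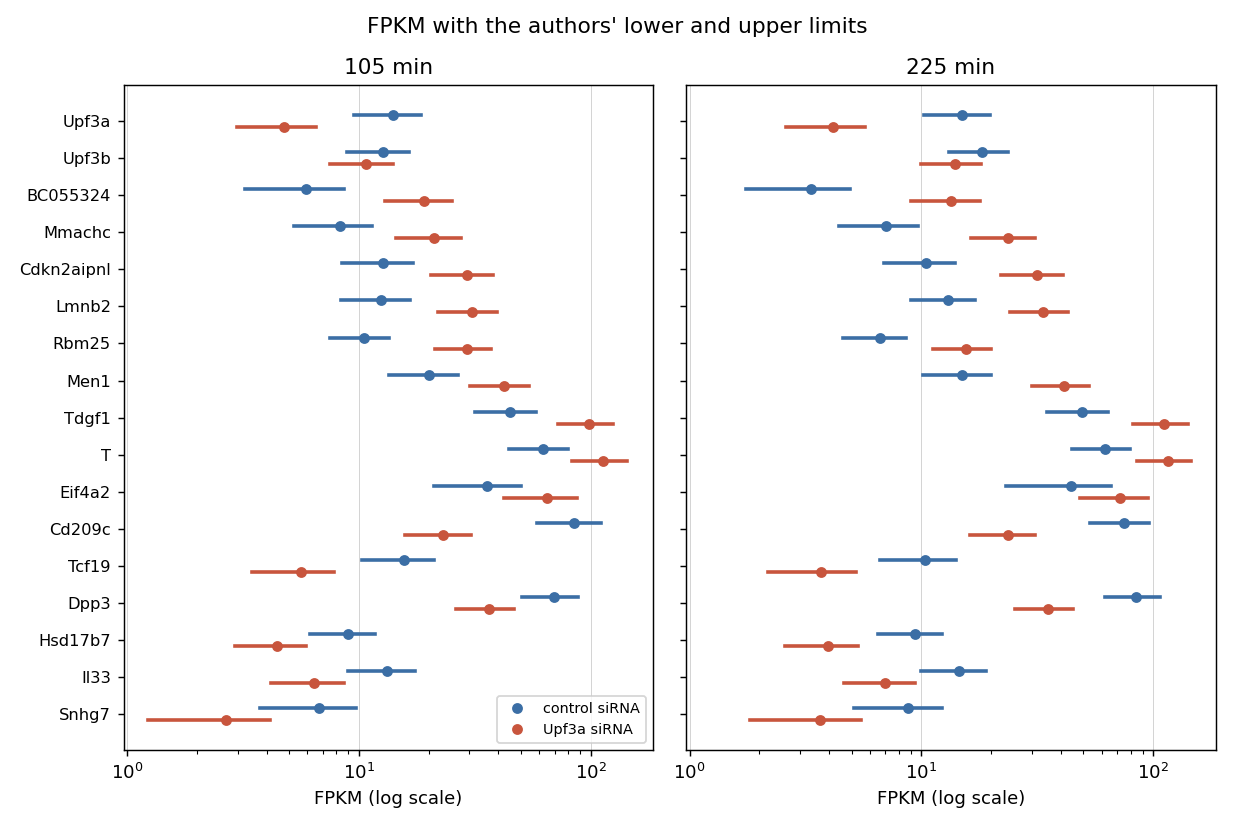
FPKM on a log scale (x axis) of 17 genes at 105 min (left) and 225 min (right); points are the deposited FPKM, bars run from the authors' lower to upper limit, control siRNA in blue and Upf3a siRNA in red. Bars of the arms are apart at both times for the called genes such as Mmachc and Dpp3 and overlap for Upf3b, Eif4a2 and Snhg7.

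In the lists that follow, called means by the limits, where 0.639% of all genes were higher and 0.27% lower. Shares this small leave most lists of this size with no called member. Counts by limma are given beside it, and limma called 15.3% of all genes higher and 11.2% lower. By the limits the machinery of NMD showed no called member beside Upf3a, and limma called 2 of the 14 genes higher and 3 lower. Of 14 NMD and release factor genes, 1 was lower, none was higher and 13 were not called, and their median late log2 ratio was -0.01, against 0.01 for all genes; scaled to ribosomal protein genes it was 0.04. Gspt1, which encodes the release factor eRF3, had the highest ratio with 0.47: 41.2 FPKM (30.4 to 51.9) against 53.3 (39.4 to 67.2) at 105 min and 42.3 (31.2 to 53.4) against 63.3 (46.9 to 79.7) at 225 min, with overlapping limits. Upf2, which joins UPF3 proteins to UPF1, had a ratio of -0.36 and Smg1, the kinase of UPF1, one of 0.29. None of 12 exon junction complex genes was called by the limits and 1 was higher by limma; their median was 0.04 and turned to -0.01 with quantile normalization.

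No transcript known as an NMD target was called by the limits, which in a list of this size is near the share over all genes. With limma, 6 of 22 were higher and 6 lower, where 15.3% and 11.2% of all genes were. Of 22 that were measured, 5 more on the list being below the minimum, 8 had ratios above 0 and 9 below 0 at both late times, and their median was -0.07. Over all genes 4390 (39.5%) were above 0 and 3972 (35.8%) below 0 at both times. Eif4a2, an RNA helicase gene with a known NMD-sensitive isoform, had the highest ratio of the list: 35.6 FPKM (21.0 to 50.2) against 64.8 (42.2 to 87.4) at 105 min and 44.4 (23.1 to 65.7) against 71.7 (48.2 to 95.2) at 225 min. Dnajb2, a cochaperone, had 0.53 and Plec, a cytoskeletal linker, 0.46. Tbl2, at the other end, had -0.40. The file gives 1 value per gene, so an NMD-sensitive isoform could not be read apart from the other transcripts of its gene.

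Host genes of small nucleolar RNAs, whose spliced RNAs are commonly NMD substrates, leaned lower in the knockdown arm. None was called by the limits, and limma called 9 of 20 lower and 1 higher, where it called 11.2% and 15.3% of all genes. Of 20 measured, 13 were below 0 at both late times and 4 above. Their median was -0.05 at 0 min, -0.11 at 15 min, -0.13 at 105 min and -0.34 at 225 min, so the 105 min value was close to the 15 min value. Snhg7 had 6.73 FPKM (3.75 to 9.71) against 2.68 (1.23 to 4.13) at 105 min and 8.73 (5.13 to 12.3) against 3.65 (1.82 to 5.48) at 225 min, at a shared locus. Snhg3 had 67.4 (44.5 to 90.3) against 53.1 (34.2 to 71.9) at 105 min and 75.7 (50.4 to 101) against 53.4 (34.7 to 72.2) at 225 min. The limits overlapped for both genes. The median share of the 0 min FPKM was 59.4% in the control arm and 55.9% in the knockdown arm at 105 min, and 81.7% and 62.8% at 225 min.

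Splicing factors that control themselves through poison exons, which carry premature stops, leaned the other way. Of 30 measured, 21 had ratios above 0 at both times and 3 below, with a median of 0.19, and 1 was called, Rbm25. By limma 11 were higher and none lower. This lean was already there early, with medians of 0.11 at 0 min and 0.22 at 15 min against 0.15 at 105 min and 0.12 at 225 min. Srsf2 had 334 FPKM (247 to 421) against 487 (362 to 612) at 105 min and 366 (272 to 461) against 539 (401 to 677) at 225 min. Srsf9 had a ratio of 0.50 and Hnrpdl, an RNA-binding protein of the nucleus, one of 0.53. All 3 overlapped between arms. In the list of mRNA decay machinery 35 of 59 genes were above 0 and 11 below at both times, with a median of 0.10, and 1 was called; limma called 9 higher and 4 lower. That gene was Xrn1, the exonuclease that degrades decapped mRNA from its start, with 1.27 FPKM (0.792 to 1.75) against 5.29 (3.61 to 6.96) at 105 min and 0.931 (0.564 to 1.3) against 3.57 (2.41 to 4.72) at 225 min; its exons overlap C78334 on the other strand.

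Among genes of the early embryo, 4 list members were called higher by the limits, where 0.639% of all genes were, and none lower. Limma called 11 pluripotency genes and 6 mesoderm and endoderm markers higher and none lower, where 15.3% and 11.2% of all genes were. Of 28 pluripotency genes 3 were higher and none lower, 16 were above 0 and 3 below 0 at both times, and the median was 0.16. Tdgf1, a coreceptor of Nodal, had 44.8 FPKM (31.7 to 57.8) against 98.6 (72.3 to 125) at 105 min and 49.3 (35.0 to 63.6) against 112 (82.2 to 141) at 225 min. Utf1, a chromatin factor of pluripotent cells, had 151 (103 to 199) against 288 (209 to 367) and then 108 (75 to 141) against 275 (198 to 352). Fgf5, a growth factor of the primed epiblast, had 2.62 (1.55 to 3.68) against 7.72 (5.13 to 10.3) and then 1.48 (0.826 to 2.14) against 5.27 (3.41 to 7.14). In all 3 the arms were apart at both times. Of 25 mesoderm and endoderm markers 10 were measured, 8 were above 0 at both times and none below, with a median of 0.40 and a summed level, over all 25, of 125 FPKM in the control and 208 in the knockdown arm at 105 min and 111 and 187 at 225 min. T, which encodes brachyury of the primitive streak, was called, with 62.3 (44.5 to 80.1) against 113 (82.9 to 143) at 105 min and 62.1 (44.5 to 79.6) against 116 (84.8 to 146) at 225 min. These lists mark cell states, and in bulk RNA more cells of a state and more RNA per cell cannot be told apart. None of 11 neural markers was called at both times, with 1 higher and 2 lower by limma; Elavl3, a neuronal RNA-binding protein, was apart at 225 min alone, with 10.9 (7.63 to 14.1) against 4.90 (3.33 to 6.48).

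Among metabolic lists, cholesterol synthesis lay lowest. Of its 26 genes 20 were below 0 at both times and 2 above, with a median of -0.24 at 105 min and -0.22 at 225 min; Hsd17b7 was the member called, and limma called 10 lower and none higher. Idi1, which makes an isoprenoid building block, had 93.8 FPKM (68.4 to 119) against 66.5 (48.6 to 84.3) at 105 min and 110 (80.7 to 139) against 79.0 (58.0 to 100) at 225 min, within the limits. Glycolysis genes had 13 of 23 below and 3 above 0 at both times, with a median of -0.13, and p53 targets 13 of 20 below and 6 above, with a median of -0.15. None of either was called by the limits, and limma called 3 glycolysis genes lower, 4 p53 targets higher and 6 lower. Over all genes limma called 15.3% higher and 11.2% lower. The medians of the cholesterol, glycolysis, p53 and small nucleolar RNA host lists stayed below 0, and those of the pluripotency, mesoderm and endoderm, poison exon and decay machinery lists above 0, under median-of-ratios, ribosomal protein and quantile scaling. At 0 min the medians of the pluripotency list, 0.24, and of the cholesterol list, -0.25, were already of that size.

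**Figure D3:**
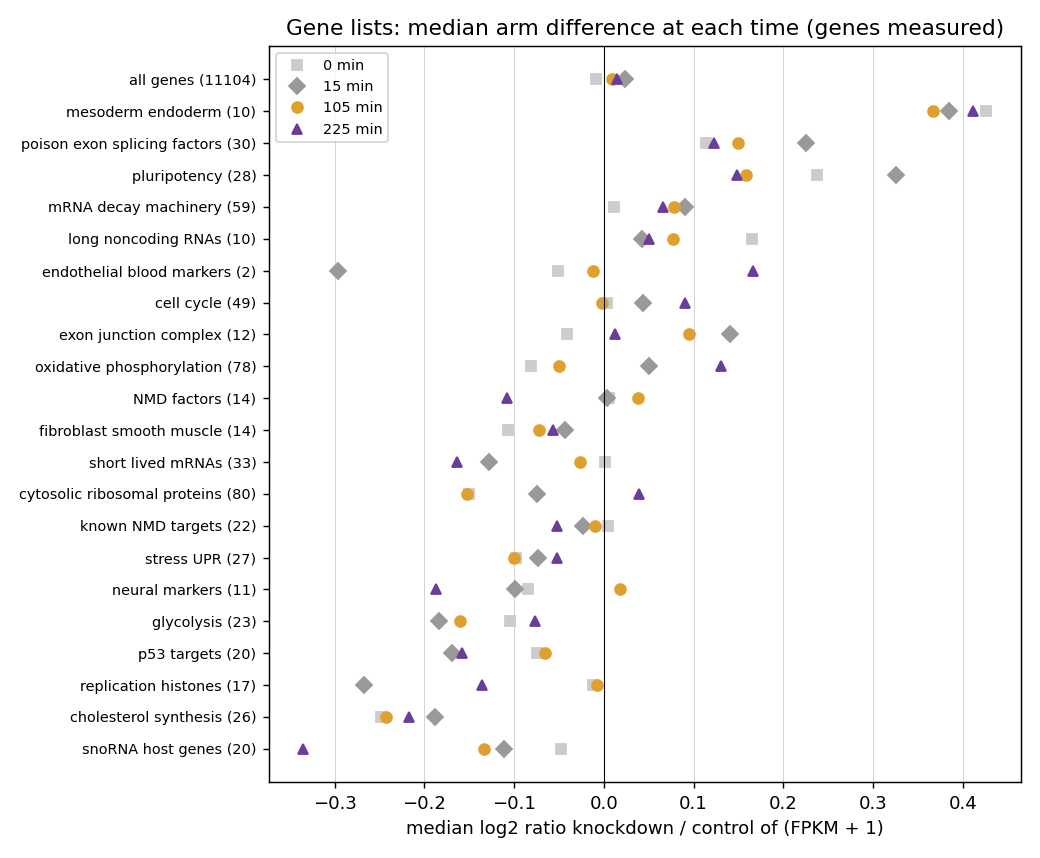
Median log2 ratio of knockdown to control on the (FPKM + 1) scale (x axis) for each gene list and for all genes (y axis, number of genes measured in parentheses) at 0, 15, 105 and 225 min. All genes sit near 0, small nucleolar RNA host genes reach -0.34 at 225 min and mesoderm and endoderm markers lie near 0.40 at every time.

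Ribosomal protein and oxidative phosphorylation genes, which have short mRNAs, had medians on opposite sides of 0 at the late times. The median of 80 cytosolic ribosomal protein genes was -0.15 at 105 min and 0.04 at 225 min, and that of 78 oxidative phosphorylation genes was -0.05 and 0.13; no gene of either list was called at both times by the limits, and limma called 1 ribosomal protein gene lower and 6 oxidative phosphorylation genes higher and 2 lower. Transcript length moved the same way. In the 25% of coding genes with the shortest transcripts, up to 1860 bases, the median was -0.02 at 105 min and 0.07 at 225 min, while in the 25% with the longest, from 4463 bases, it was 0.05 and -0.05. The lists have median lengths of 858 and 863 bases. The part of length in the list values was not tested.

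The arm differences late after the block mostly had the same direction at its start. All 71 higher genes had ratios above 0 and 28 of the 30 lower genes ratios below 0 at all 4 times. The exceptions were Morf4l2, with limits below its FPKM, and Mir215, listed at 0 in both arms at 0 and 15 min. Of the higher genes, 33 (46.5%) were also apart at both 0 and 15 min, 32 at 1 of these times and 6 at neither. Among the lower genes, 10 (33.3%) were apart at both early times, 10 at 1 of them, Morf4l2 included, and 10 at neither, Mir215 included. The late call used other conditions than the early ones. In the other direction, 33 of the 51 genes (0.459% of those tested) higher at both early times, or 64.7%, were higher at both late times, and 10 of 14 (0.126%) lower ones, or 71.4%, were lower. The median ratio of the higher genes was 0.96 early and 1.08 late, and that of the lower genes -0.85 and -0.97. The called genes were chosen on the late values, so a late ratio larger than the early one is in part a product of that choice. Across 7157 genes averaging 5 FPKM or more, small RNA genes aside, the late and early mean ratios had a Pearson correlation of 0.93 as a description over genes, which are not independent and share their libraries' preparation.

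A direct comparison of the late and early ratios found almost no gene beyond the spread between times. With limma on the 4 ratios, 105 and 225 min against 0 and 15 min with 2 residual degrees of freedom, 1 gene (0.00901%) passed a Benjamini-Hochberg adjusted p of 0.05 as higher late and 1 (0.00901%) as lower late. Both are small RNA genes, Snora31 and Mir215, with FPKM listed at 0 in some conditions. At an unadjusted p below 0.05 there were 371 genes (3.34%), 136 of them higher late, against 555 expected if no gene changed. With trend and robust estimation 2 genes passed as higher, Hist1h2ag and Nkx2-4, and none as lower. Data of this design were simulated on 11104 genes, with 200 changed. The fit recovered 97% of genes shifted by 1 log2 unit, with 14 false calls, and 0% of those shifted by 0.5. The simulated noise was independent between genes and times and drawn from the spread the fit itself estimated. It lacks shifts shared by many genes at 1 time, such as that of transcript length, so 97% may be too high for these data. Shifts of 0.5 were not detectable even so.

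Genes averaging 5 FPKM or more and among the 8 with the largest moderated statistic in either direction did not pass, and values of some are given as a description. Cdkn2d, an inhibitor of cyclin D kinases, had ratios of 0.01 at 0 min, -0.05 at 15 min, -0.41 at 105 min and -1.03 at 225 min, a late minus early difference of -0.70 (SE 0.19, limma adjusted p = 1.00). At 225 min it stood at 71.7% of the 0 min FPKM in the control arm and at 30.3% in the knockdown arm, and its limits overlapped at each time. Fen1, a nuclease of DNA replication and repair, had a difference of -0.53 (SE 0.12) with adjusted p = 1.00, and at 225 min 71.3 FPKM (51.6 to 91.0) against 36.1 (25.8 to 46.4), the arms being apart there and overlapping at the other times. On the other side, Mrps26 had a difference of 0.32 and Ndufab1, the acyl carrier protein of mitochondria, one of 0.38. Ndufab1 had 59.1 FPKM (41.2 to 77.0) against 115 (82.3 to 148) at 225 min.

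**Figure D4:**
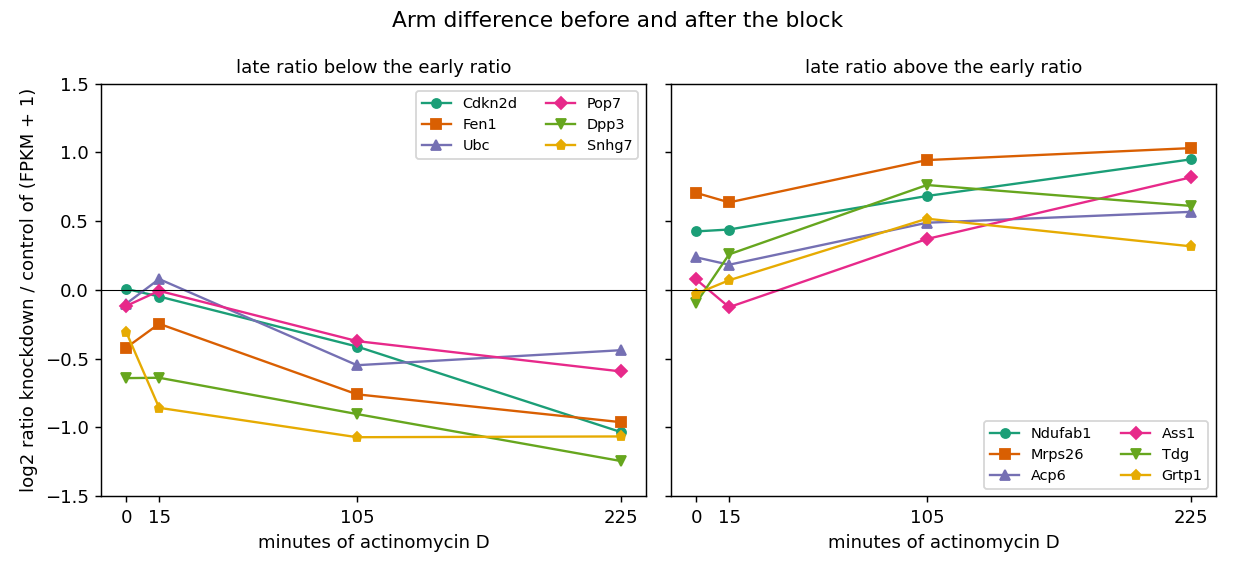
Log2 ratio of knockdown to control on the (FPKM + 1) scale (y axis) against minutes of actinomycin D (x axis) for genes with a late ratio below (left) or above (right) the early ratio; each point is the single deposited value per arm. Cdkn2d runs from 0.01 to -1.03, and Mrps26 lies above 0 at all times.

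Limits were apart at exactly 1 of the late times for 123 higher and 37 lower genes, and those described here differed most between the times. Arid1a, a subunit of SWI/SNF chromatin remodelling complexes, had 24.9 FPKM (18 to 31.7) in the control arm and 43.9 (32.0 to 55.8) in the knockdown arm at 105 min, and 13.4 (9.58 to 17.2) and 16.3 (11.7 to 20.8) at 225 min. Mt2, a metallothionein that binds zinc, had 29.9 (17.2 to 42.6) and 46.0 (28.3 to 63.7) at 105 min and 27.1 (15.5 to 38.6) and 65.2 (40.9 to 89.4) at 225 min. Arid1a was thus apart at 105 min alone and Mt2 at 225 min alone. Snora15 and Snora41 were apart in opposite directions at the 2 times. Small RNA genes varied most: among 40 of them the ratios at 105 and 225 min differed by a median of 4.73 log2 units, against 0.12 for the other genes, and 27 were listed at 0 in at least 1 late condition.

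Features of the transcripts were compared with the calls using GENCODE vM21 annotation on GRCm38, which the rule for the genes did not use. Of 10706 coding genes, 3226 have an annotated transcript of the NMD class; their median late ratio was 0.02 and 0.682% were higher and 0.155% lower, against 0.01, 0.628% and 0.254% in the 7480 without. The feature was present in 31.9% of the higher, 20.8% of the lower and 30.1% of all coding genes. A splice junction more than 50 bases after the stop codon of the main transcript, the classical NMD feature, was present in 31 genes. Their median was -0.01 and none was called. The main transcript was a protein-coding one where available, so transcripts of the NMD class were mostly passed over. Among all coding genes 0.644% were higher and 0.224% lower, so no call among 31 genes is near the background. Higher genes had a median 3′ UTR of 1118 bases and lower genes one of 902 bases, against 937 bases in all. These are shares and medians of single annotated transcripts, with no test.

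AU-rich elements are sequences in the 3′ UTR bound by proteins that promote decay, and the nonamer TTATTTATT is a core form of them. It was searched on the transcript's strand only, overlapping matches counted, in the annotated 3′ UTR and was found in 738 coding genes (6.89%). It was present in 1 of 69 higher and 3 of 24 lower coding genes. Whether the nonamer acts on decay in these transcripts was not tested. The site of Lipg (lower, with a ratio of -0.90) is not shown. The sites of the other 3 of these 4 genes are shown with 8 bases on each side, the nonamer in capitals.
Klc2: tctgctccTTATTTATTcttccagc
Stc1: atatgtcaTTATTTATTgttaaatt
Zfp846: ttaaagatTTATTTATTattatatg
The Klc2 window lies at chr19:5108391-5108415 (minus strand), the Stc1 window at chr14:69041191-69041215 (plus strand) and the Zfp846 window at chr9:20603642-20603666 (plus strand), each in a 3′ UTR of GRCm38.

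Klc2, a light chain of the motor kinesin, was higher, with 10.7 FPKM (7.08 to 14.2) against 20.9 (14.7 to 27.0) at 105 min and 11.5 (7.74 to 15.2) against 25.2 (18 to 32.3) at 225 min. Stc1, a secreted hormone, was lower, with 1.89 (1.14 to 2.65) against 0.616 (0.317 to 0.916) and then 2.57 (1.63 to 3.51) against 0.362 (0.163 to 0.561). Zfp846, a zinc finger gene, was lower, with 3.47 (2.20 to 4.74) against 1.36 (0.790 to 1.94) and then 2.77 (1.73 to 3.82) against 1.02 (0.575 to 1.47). Stc1 and Lipg are members only through the control arm, with a knockdown mean below 1 FPKM. The nonamer occurs among genes called in both directions, and no result about direction is drawn from so few genes.

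Genes with the nonamer had smaller shares of their RNA left than other genes in both arms. Their median share of the 0 min FPKM at 225 min was 79.6% in the control arm and 76.0% in the knockdown arm, against 108% and 111% in the 9968 genes without it. FPKM is relative to sequencing depth, so a share above 100% is a rise relative to the other RNA sequenced, not in amount. The FPKM total itself was not constant. It rose from 562848 at 0 min to 880304 at 225 min in the control arm, and from 537437 to 923333 in the knockdown arm. Their median arm ratio was -0.04 at 105 min and -0.10 at 225 min, against 0.01 and 0.02 without the nonamer, and -0.05 against -0.01 at 0 min. Longer 3′ UTRs hold more nonamers, and within the 25% of genes with the longest 3′ UTRs, from 1955 bases, the 393 with a nonamer had a median of -0.10 at 225 min and the 2284 without one of -0.02. Shares left there were 69.6% in the control and 64.8% in the knockdown arm with the nonamer and 84.8% in each arm without. Of 33 measured mRNAs known to be short-lived, 15 were below 0 and 9 above at both times, and none was called by the limits. By limma 5 were higher and 8 lower, where 15.3% and 11.2% of all genes were. The median shares left of these mRNAs at 225 min were 22.6% in the control and 19.3% in the knockdown arm. Id2, an inhibitor of differentiation, was among them, with 13.5 FPKM (8.64 to 18.3) against 6.47 (3.90 to 9.04) at 105 min and 4.65 (2.69 to 6.6) against 2.20 (1.13 to 3.27) at 225 min.

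**Figure D5:**
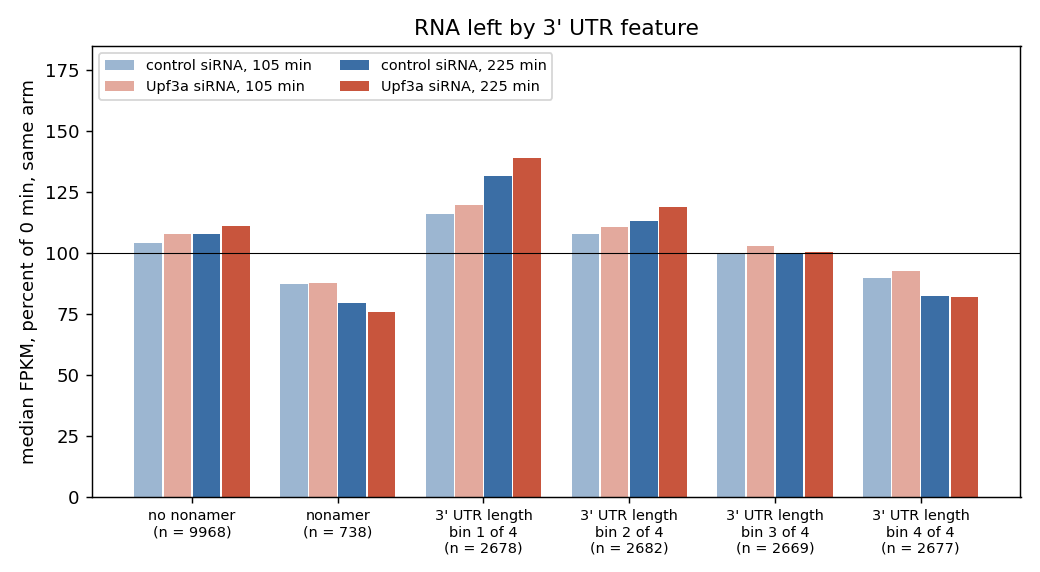
Median FPKM as a percent of the 0 min FPKM of the same arm (y axis) for coding genes without and with the nonamer and for 4 bins of 3′ UTR length of equal size, bin 1 being the shortest (x axis, number of genes in parentheses); pale bars are 105 min and full bars 225 min, control siRNA in blue and Upf3a siRNA in red. Genes with the nonamer and genes with long 3′ UTRs lie below 100% in both arms, and the arms lie close together in every class.

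Stability in the control arm was then set against the arm ratio at the other late time, so that no late condition enters both. Genes with at least 1 FPKM at 0 min were put in 5 bins of equal size by the share left at 105 min in the control arm, and the median ratio at 225 min was -0.09 in the least stable bin, 0.00 in the next, and 0.04, 0.07 and 0.06 in the more stable ones. The least stable bin had a median of 58.7% left and the most stable 131%. With the times exchanged, the medians at 105 min over bins of the share left at 225 min were -0.02, 0.02, 0.05, 0.04 and -0.02. A lower ratio in less stable mRNAs was therefore seen at 225 min and was not shared by 105 min at the stable end. The transcript length shift between the late times given above moves with these values, since short transcripts had the larger shares left, and its part was not tested.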

How the data were processed

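TopHat2, Cufflinks and the mm10 build are named, without versions, per the submitters' processing notes; the sources used here do not name the annotation. The authors deposited 1 FPKM per gene and condition for 23284 genes with a lower and an upper limit, per the file headers; how the 2 cultures of a condition were combined is not stated. The table's columns were matched to conditions by arm and time in their names. Of the member genes, 10 had a failed status or an upper limit below the FPKM, and 2036 lie in loci shared with another gene.

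Genes averaging 1 FPKM or more over the 4 late conditions were kept, and ratios were taken as log2(FPKM + 1). An arm difference was called where the limits did not overlap at 105 and 225 min in the same direction. Late and early ratios were compared with limma 3.58.1 in R 4.3.3, eBayes without trend, Benjamini-Hochberg adjusted over 11104 genes; residuals measure disagreement between times, not cultures. The fit was tested on simulated data. Transcript features and sequences were taken from GENCODE vM21 (GRCm38); 99.0% of the genes had an entry. Tables were read in Python 3.11.15 with pandas 2.3.3.

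Named genes are Upf3a and Upf3b, up to 12 highest and 12 lowest called genes with a mean of 5 FPKM or more, up to 4 per list by size with 1 sign at both times, 8 by moderated statistic in each direction of the late against early comparison and 5 that differ most between late times; predicted genes, clones, small RNAs and pseudogenes were left out. Others are said in the text to be chosen after their values were seen, as were Snora31, Mir215, Snora15, Snora41, Nkx2-4, Klc2, Stc1, Zfp846, Lipg and Tbl2. The members and the 21 lists were chosen with earlier results of these data known, so no list is independent evidence of its direction. Of the lists, 4 entries had no match and 21 were matched under another symbol. Alternatives covered the call rule, scaling, filter, pseudocount, times, shared loci and quality of limits.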

Additional observations from a re-analysis of the deposited data

Results flagged for a closer look

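Mir215, a microRNA gene, differed between the late and the early times by -6.92 on the log2 scale of the arm ratio. It was listed at 0 in both arms at 0 and 15 min and in the knockdown arm at 105 and 225 min, and at 125 and 116 FPKM in the control arm at these late times; its locus is shared, and the value rests on FPKM listed at 0. Snora31, a small nucleolar RNA gene, differed by 6.88. It was at 496 and 338 FPKM in the control arm at 0 and 15 min and listed at 0 at both late times, and at 438, 546, 95.2 and 203 FPKM in the knockdown arm over the 4 times. At 225 min its limits in the knockdown arm ran from 0 to 8834 FPKM. In limma without trend and with all 4 times, these were the genes past an adjusted p of 0.05 for a change of the arm ratio between the early and the late times; with trend and robust estimation neither was, and 2 other genes were.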

How the results depend on the processing

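The main counts at both late times were 71 genes with the knockdown arm higher and 30 with it lower, and 1 higher and 1 lower for the late against early comparison. The count of higher genes was 228 where the FPKM values of the arms had only to differ by the root sum of squares of the distances from FPKM to limit, a looser rule, 284 with a fold of 1.5, 261 with quantile normalization and that fold, 46 at a mean of 5 FPKM or more, 419 and 108 by fold with pseudocounts of 0.1 and 5, 160 at 225 min alone and 1700 by limma with time and arm on 1 residual degree of freedom. The count of lower genes was 85, 92, 106, 13 and 231 in the first 5 of these in that order, 17 scaled to ribosomal protein genes, 56 at 225 min alone and 1243 by limma. The limma calls had a median size of 0.40 log2 units, and 4391 genes had an unadjusted p below 0.05; the spread there is that between 2 times only. All 71 higher genes were also called by fold of 1.5 and by limma, and 68 with ribosomal protein scaling; of the lower genes 29 were, and 17 with that scaling. The looser rule contains the calls by its construction. The fold rule and limma use the same late values as the calls, so their overlap with the calls is not independent support.

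For the late against early comparison, higher genes numbered 2 with trend and robust estimation and 0 with a pseudocount of 5, and 2 to 10 when a time was left out: 10 when 0 min was omitted, 2 for 15 min, 4 for 105 min and 5 for 225 min. Lower genes numbered 0 with trend and robust estimation and, with the same times omitted in turn, 7, 2, 4 and 3. No called gene and no count turned in direction, but some list medians did. Among the 119 named genes, with the limits rescaled, those called kept their call under median-of-ratios and ribosomal protein scaling except Dpp3, Hsd17b7, Il33, Lrrn1 and Syt11 under the second. The median of all genes moved from 0.01 to -0.02 with quantile normalization. The list medians of exon junction complex (-0.01), cell cycle (-0.03) and oxidative phosphorylation (-0.04) genes were below 0 with quantile normalization, and those of NMD factors (0.04) and fibroblast markers (0.03) above 0 with ribosomal protein scaling. The cause of these changes was not tested. No paired analysis was possible because the table holds 1 value per condition with no replicate number; the limma fits pair the arms by time only. Depth is unknown, so the authors' limits are the only measure of precision within a condition.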

Other observations

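Lists not described above gave these values, with no test. By limma 15.3% of all genes were higher and 11.2% lower. Of 49 measured cell cycle genes 23 had ratios above 0 and 15 below 0 at both late times, with a median of 0.07 and none called by the limits (8 higher and 6 lower by limma); Plk1, a mitotic kinase, had 67.5 FPKM (limits 48.4 to 86.7) in the control and 97.8 (71.5 to 124) in the knockdown arm at 105 min. In the list of stress and the unfolded protein response, 12 of 27 genes were below 0 and 6 above, with a median of -0.07; Xbp1, a factor of that response, had 24.1 (16.7 to 31.6) against 16.4 (11.1 to 21.8) at 105 min, and Atf4, which is also on the NMD target list, had a ratio of 0.33. Of 10 long noncoding RNAs 5 were above 0 and 2 below, with a median of 0.08, and of 14 fibroblast and smooth muscle markers 1 was above 0 and 4 below, with a median of -0.02. The 17 measured histone genes of replication, whose mRNAs end without a poly(A) tail, had a median ratio of -0.17 with 7 below 0 and 2 above. Their median share of the 0 min FPKM at 225 min was 385% in the control and 238% in the knockdown arm, at low levels that summed to 42.1 and 39.9 FPKM at 105 min and 85.1 and 77.3 at 225 min.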
